A study of Mus musculus with 4 samples.

Results

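H3K27ac is an acetyl mark on histone H3 that active enhancers and promoters carry. Its peaks were described at the 5 genes for the receptors of vascular endothelial growth factors (VEGFs): the receptor kinases *Kdr* (VEGFR2), *Flt1* (VEGFR1), and *Flt4* (VEGFR3) and the neuropilins *Nrp1* and *Nrp2*. The genes were chosen by family and not by a rule on their peaks, but with earlier results of these data known. They are 5 of the 21883 protein-coding genes of the GRCm38 annotation on the chromosomes of the peak lists. The window of each gene was the gene body and 10 kb on each side. A region was a peak, or a union of overlapping peaks of both libraries. It was called shared when peaks of both libraries overlapped by at least 1 bp, and distal when it lay more than 1 kb from both ends of the gene.

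VEGF-A acts on endothelial cells mainly through KDR, whose kinase drives survival, proliferation, and permeability, whereas FLT1 binds VEGF-A more tightly, signals weakly, and has a soluble form that acts as a decoy. FLT4 is the receptor of VEGF-C and VEGF-D and is best known in lymphatic endothelium, but it is also found on fenestrated endothelium such as that of the liver sinusoid. Neuropilins have no kinase: NRP1 binds VEGF-A together with KDR, NRP2 binds VEGF-C together with FLT4, and both also bind class 3 semaphorins.

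H3K27ac had been measured by ChIP-Seq in isolated mouse liver sinusoidal endothelial cells (LSECs) to find enhancers of the genes for collagen IV. There were 2 libraries of 1 condition, called replicates 2 and 3 after their library names. Each library has an input, chromatin that was not immunoprecipitated, which was not analysed here on its own. The sample records name the cell type and the antibody but give no genotype, strain, age, or treatment of the mice. The methods describe LSECs isolated from protease- and collagenase-perfused liver with anti-CD146 magnetic beads and then plated on collagen I, and the mice named there carry a floxed *Col4a1* allele or a dCas9-KRAB transgene, with or without a tamoxifen-inducible Cre under the endothelial *Cdh5* promoter. Which of these mice gave the 2 libraries, and whether the libraries came from separate mice, was not given in the sources used here.

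The list of replicate 2 held 26975 peaks and that of replicate 3 held 64498, which was 2.39 times as many, with lower limits of 2.04 and 2.01 for −log10 q. Fold enrichment, the ratio of a peak's signal to its local background as the authors' caller gave it, was not scaled between libraries, so it was compared within a library or by its percentile. The lists held no read counts, so the depth is unknown. With 2 libraries and 1 condition no test between groups was possible, and the agreement of the libraries is the only measure of error. The label of the cells was checked against marker genes. A peak of both libraries lay within 1 kb of an end of 8 of 12 LSEC markers, against 43.4% of all protein-coding genes, and of 2 of 34 markers of hepatocytes, stellate cells, Kupffer cells, cholangiocytes, and lymphocytes (*Cd68* and *Cd79a*). The LSEC markers without one were *Stab2*, *Mrc1*, *Clec4g*, and *Mcam*, the gene for the CD146 used in the isolation, and these had a gene-end peak in replicate 3 only. In replicate 3 a gene-end peak lay at all 12 LSEC markers and at 6 of the 34 others, the 4 further ones being the hepatocyte genes *Apoa1* and *Apob*, the stellate cell gene *Col1a1*, and the cholangiocyte gene *Epcam*. *Alb*, with no gene-end peak, had a shared distal region with folds of 7.93 and 16.9, and the lymphocyte gene *Nkg7* one with 30.5 and 91.8. At least 1 shared distal region was found at 12 of 12 LSEC markers, against 39.3% of all protein-coding genes. It was found at 1 of 8 hepatocyte markers, 1 of 8 of stellate cells (*Pdgfra*), and 0 of 5 of cholangiocytes. Kupffer cell markers had it at 2 of 7 (*Csf1r* and *Cd68*) and lymphocyte markers at 3 of 6 (*Cd3g*, *Cd79a*, and *Nkg7*). Distal was counted from the ends of the marker gene alone. The marker windows were not checked for ends of other genes, so a distal region there, such as that of *Nkg7*, may belong to a neighbour. CD146 is also carried by other endothelial cells of the liver, so peaks of LSECs and of those cells cannot be told apart here.

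The promoters are shown because all 5 lay wholly inside a replicate 3 peak while replicate 2 covered them unevenly. Each sequence runs from 250 bases before to 50 bases after the RefSeq start site (GRCm38.p6) on the coding strand, with capitals for the ETS (ACNGGAA), GC-box (GGGCGG), and TATA box (TATAAA) letters found on either strand.
Kdr: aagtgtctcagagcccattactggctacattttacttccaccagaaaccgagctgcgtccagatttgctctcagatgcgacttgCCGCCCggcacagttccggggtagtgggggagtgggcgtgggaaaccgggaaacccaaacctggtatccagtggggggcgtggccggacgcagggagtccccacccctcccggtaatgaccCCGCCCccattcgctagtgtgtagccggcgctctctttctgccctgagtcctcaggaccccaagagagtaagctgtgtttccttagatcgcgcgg
Flt1: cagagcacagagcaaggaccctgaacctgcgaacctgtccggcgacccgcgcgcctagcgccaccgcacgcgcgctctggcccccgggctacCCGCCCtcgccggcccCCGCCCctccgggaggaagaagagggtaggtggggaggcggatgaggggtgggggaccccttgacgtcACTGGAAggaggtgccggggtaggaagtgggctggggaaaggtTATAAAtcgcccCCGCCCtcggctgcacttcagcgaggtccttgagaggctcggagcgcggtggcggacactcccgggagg
Flt4: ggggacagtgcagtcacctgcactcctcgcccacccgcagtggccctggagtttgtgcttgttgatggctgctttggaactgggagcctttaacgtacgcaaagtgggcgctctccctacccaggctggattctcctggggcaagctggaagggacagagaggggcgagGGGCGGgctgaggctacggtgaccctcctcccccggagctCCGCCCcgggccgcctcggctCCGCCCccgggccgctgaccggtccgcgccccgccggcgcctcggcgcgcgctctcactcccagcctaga
Nrp1: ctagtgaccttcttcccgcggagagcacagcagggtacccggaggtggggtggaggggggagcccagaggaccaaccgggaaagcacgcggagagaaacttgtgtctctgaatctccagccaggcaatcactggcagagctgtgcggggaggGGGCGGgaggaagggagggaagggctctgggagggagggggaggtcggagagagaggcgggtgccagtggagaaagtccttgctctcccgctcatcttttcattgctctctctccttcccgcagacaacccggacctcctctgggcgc
Nrp2: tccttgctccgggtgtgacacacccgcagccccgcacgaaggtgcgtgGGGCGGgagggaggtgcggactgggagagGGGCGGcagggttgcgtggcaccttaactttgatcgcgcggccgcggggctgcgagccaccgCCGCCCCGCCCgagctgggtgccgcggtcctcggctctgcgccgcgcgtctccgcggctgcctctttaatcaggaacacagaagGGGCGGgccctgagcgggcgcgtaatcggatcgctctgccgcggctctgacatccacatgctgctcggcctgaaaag
The promoter of *Kdr* is at chr5:75978406-75978705 (minus strand), that of *Flt1* at chr5:147725962-147726261 (minus strand), that of *Flt4* at chr11:49609429-49609728 (plus strand), that of *Nrp1* at chr8:128358823-128359122 (plus strand), and that of *Nrp2* at chr1:62703067-62703366 (plus strand).

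These promoters were rich in G and C, at 60.7% for *Kdr*, 70.7% for *Flt1*, 70.3% for *Flt4*, 64.0% for *Nrp1*, and 70.7% for *Nrp2*, against a median of 56.3% over 21262 RefSeq promoters of 17491 genes. The observed over expected ratio of CpG ran from 0.474 in *Nrp1* to 0.992 in *Nrp2*, with a median of 0.567 over all promoters, so *Nrp1* was the only one of the 5 below that median. A GC-box was found in all 5, against 46.2% of all promoters, and the Kruppel-like factor letters CCACCC in all but *Nrp2*, against 33.6%. The ETS letters, read by a family of factors that act at most endothelial genes, were found in *Flt1* only, 74 bases before the start site, against 18.1% of all promoters. *Flt1* also held the only TATA letters, 31 bases before the start site, against 12.6%. No promoter of the 5 held the letters searched for GATA factors (AGATAA, 9.65% of all promoters), AP-1 (TGANTCA, 6.99%), SOX (ACAAT, 27.7%), NF-κB (GGNNTTTCC, 5.74%), or the E-box (CACGTG, 7.84%). Both strands were searched, and no match of one motif overlapped one of another. A match is a description of these 300 bases and not a binding site, and the lack of one says nothing of the factor.

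A peak lay within 1 kb of an end of 4 of the 5 genes in replicate 2, against 43.4% of all protein-coding genes, and of all 5 in replicate 3, against 53.9%. Overlapping peaks of both libraries, each within 1 kb of the same end, were found at *Kdr*, *Flt1*, *Flt4*, and *Nrp2*, which is 4 of 5 against 43.4% of protein-coding genes and 48.5% of the 6006 that are at least 40 kb long, as all 5 members are. At least 1 shared distal region was found in the windows of all 5, against 39.3% of all protein-coding genes and 51.9% of the long ones.

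At the start site itself the 5 genes differed. *Nrp2* had the most even signal, with folds over background of 16.9 (replicate 2) and 44.9 (replicate 3) (chr1:62702720-62704240), and peaks of both libraries covered all 300 bases shown. *Flt4* had 12.2 and 46.5 (chr11:49609106-49610547), where replicate 3 gave 1 peak and replicate 2 gave 2, and the replicate 2 peak that met the promoter, at a fold of 6.10, covered 123 of its 300 bases. *Flt1* had 5.62 and 19.5 (chr5:147725257-147726590), with 162 bases covered in replicate 2. *Kdr*, the main signalling receptor, had 5.41 and 18.7 (chr5:75978179-75978850), with 144 bases covered in replicate 2. This *Kdr* region lay within 1 kb of an end of the lncRNA Gm32727, so its signal cannot be assigned to *Kdr* alone. Among the 24199 regions of the genome that were shared, the start-site region of *Kdr* stood at percentile 4.32 in replicate 2 and 32.2 in replicate 3, and that of *Flt1* at 8.81 and 34.4. Both were below the median shared region in both libraries. *Nrp1* had a start-site peak in replicate 3 only, 2300 bp wide with a fold of 9.52 (chr8:128357858-128360157). It stood at the 52.8th percentile of the whole replicate 3 list, where the start-site regions of *Kdr* and *Flt1* stood at 73.3 and 74.4. The nearest replicate 2 peak lay 1671 bp upstream of the *Nrp1* start site, in a shared region with folds of 8.13 and 17.9 (chr8:128356832-128357729). That region came within 862 bp of the gene's 5′ end only by the edge of its replicate 3 peak. It and the start-site peak both lay within 1 kb of an end of the lncRNA A930035F09Rik, so the signal there cannot be assigned to *Nrp1* alone.

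The 5 windows held 131 regions, of which 43 were shared, 87 had a peak in replicate 3 only, and 1 in replicate 2 only. Genome-wide the classes held 24199, 40204, and 226 regions. Of the 43 shared regions 5 lay at a 5′ end, 2 at a 3′ end (*Kdr* and *Flt4*), and 36 were distal, 32 of these inside a gene body. The summits of the 2 libraries in a shared region lay a median of 23 bp apart. No region of the 5 windows came within 1 kb of an end of another protein-coding gene. The annotation used here holds no exons, so it is unknown which of these regions are exonic.

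**Figure D1:**
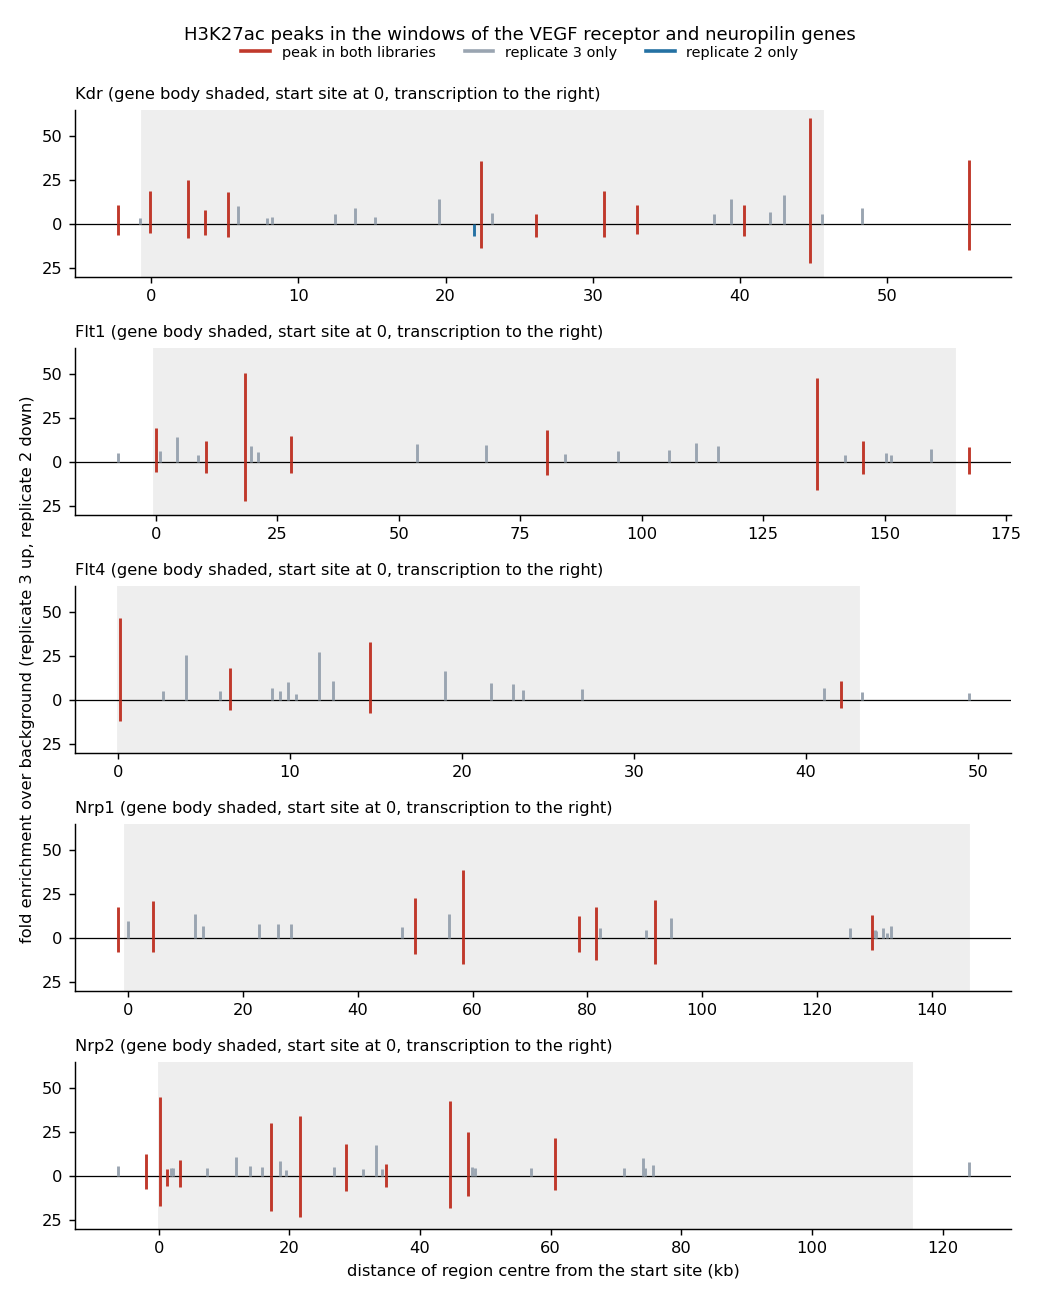
H3K27ac regions in the windows of the 5 genes, by distance of the region's centre from the start site (kb), with fold enrichment in replicate 3 upward and in replicate 2 downward. Lines are red for the 43 regions with a peak of both libraries, grey for the 87 with a peak in replicate 3 only, and blue for the 1 in replicate 2 only. The tallest line of *Kdr* stands at the far end of the gene, and *Nrp2* has none of the red lines past 61 kb.

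*Kdr* (gene ID 16542) lies at chr5:75932827-75979072 on the minus strand. It had the densest acetylation of the 5, with 28 regions in a window of 66.2 kb (4.23 per 10 kb), 12 of them shared. Peaks of both libraries covered 5.59% of its window, which was the 96.6th percentile of protein-coding genes and the 99.7th of those at least 40 kb long. The median covered share was 0.577% and 0.491%. The strongest *Kdr* region was not at the start site but at the 3′ end (chr5:75933245-75934205), with folds of 22.4 and 60.3, which were the 86.9th and 94.1st percentiles of the lists. Other strong shared regions lay 22.4 kb downstream of the start site (chr5:75955848-75956290, folds of 13.5 and 35.9) and beyond the 3′ end (chr5:75922601-75923203, folds of 14.8 and 36.3). A region of 1338 bp, 2.48 kb downstream of the start site, had folds of 8.13 and 25.04 (chr5:75975309-75976646) and lay within 1 kb of an end of the lncRNA Gm32727. The other 7 shared regions outside the start site had replicate 3 folds of 5.42 to 18.7. The nearest protein-coding genes were *Kit*, 276 kb away, and *Srd5a3*, 161 kb away.

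*Flt1* (gene ID 14254) lies at chr5:147561604-147726438 on the minus strand. At 165 kb the longest of the 5, it had 25 regions, 8 of them shared (1.35 regions per 10 kb). Its 2 strongest regions were far from each other and from the start site. The first lay 18.4 kb downstream of the start site (chr5:147707376-147707893), with folds of 22.0 and 50.5. The second lay 136 kb downstream, in the last part of the gene (chr5:147589707-147590360), with folds of 15.9 and 48.0. Both exceeded the start-site region in both libraries. The other shared distal regions had replicate 3 folds of 8.26 to 18.2. Between 81 and 136 kb no region was shared over 54.9 kb, although replicate 3 had 5 peaks there. Peaks of both libraries covered 1.20% of the window, the 63.6th percentile of protein-coding genes and the lowest of the 5.

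*Flt4* (gene ID 14257) lies at chr11:49609679-49652739 on the plus strand. It had 21 regions, of which 4 were shared and 17 were in replicate 3 only, the lowest shared fraction of the 5 (19.0%, against 32.0% to 42.9%). Beside the start site, shared regions lay 6.53 kb downstream (chr11:49615817-49616598, folds of 5.49 and 18.3), 14.6 kb downstream (chr11:49623994-49624657, folds of 7.46 and 33.0), and at the 3′ end (chr11:49651488-49651970, folds of 4.60 and 11.0). The last of these was near the lower limit of the replicate 2 list, at its 1.14th percentile. Both strongest regions without a replicate 2 peak in any of the 5 windows were in the 5′ part of *Flt4*. The one at chr11:49620815-49621910 had a replicate 3 fold of 27.1, and of 2468 replicate 3 peaks with a fold within 10% of it, 94.6% met a replicate 2 peak (95% Wilson confidence interval, 93.6% to 95.4%). The one at chr11:49613312-49613937 had a fold of 25.4, at which 92.0% of 2535 peaks met one (90.9% to 93.0%). The covered share of *Flt4* also differed between the libraries. It was 15.6% in replicate 3, the 97.6th percentile of protein-coding genes, and 1.64% in replicate 2, the 71.5th.

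*Nrp1* (gene ID 18186) lies at chr8:128358591-128505476 on the plus strand. It had 25 regions over 147 kb of gene, 8 of them shared, 7 of which were distal and all inside the gene body. Its strongest region lay 58.3 kb downstream of the start site (chr8:128416791-128418053), with folds of 14.5 and 38.5. A second, 91.8 kb downstream, had nearly the same fold of 14.6 in replicate 2 but 21.7 in replicate 3 (chr8:128450300-128451512). The other 5 distal shared regions had replicate 3 folds of 12.7 to 22.7. A stretch of 45.1 kb in the 5′ part of the gene held no shared region and 6 replicate 3 peaks. Peaks of both libraries covered 1.92% of the window, the 75.5th percentile. For *Nrp1* every distal shared region ranked above the start-site peak in replicate 3.

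*Nrp2* (gene ID 18187) lies at chr1:62703317-62818692 on the plus strand. It had the most regions, 32, of which 11 were shared, and 3.47% of its window was covered in both libraries, the 89.7th percentile of all and the 98.1st of the long genes. Of 9 shared distal regions in the body, 8 lay in the first 50% of the gene, where *Kdr* had 4 of 8, *Flt1* 4 of 6, *Flt4* 2 of 2, and *Nrp1* 3 of 7, and the last 54.5 kb held none, although replicate 3 had 4 peaks there. Over the 5 genes together 21 of the 32 shared distal regions in gene bodies lay in the first 50%, as did 46 of 78 regions of replicate 3 only. The same share was not counted over other genes, so a lean particular to these genes cannot be read from it. Strong *Nrp2* regions lay 17.2 kb (chr1:62719672-62721305, folds of 19.7 and 30.3), 21.6 kb (chr1:62724263-62725494, folds of 23.04 and 33.9), and 44.6 kb (chr1:62747528-62748251, folds of 18.3 and 42.7) downstream of the start site. Joining neighbouring shared distal regions, at a distance often used to stitch enhancers, left 15 clusters over the 5 genes. The longest was at *Nrp2*, with 6 regions over 31.2 kb, and the next was at *Kdr*, with 5 regions over 18.4 kb.

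**Figure D2:**
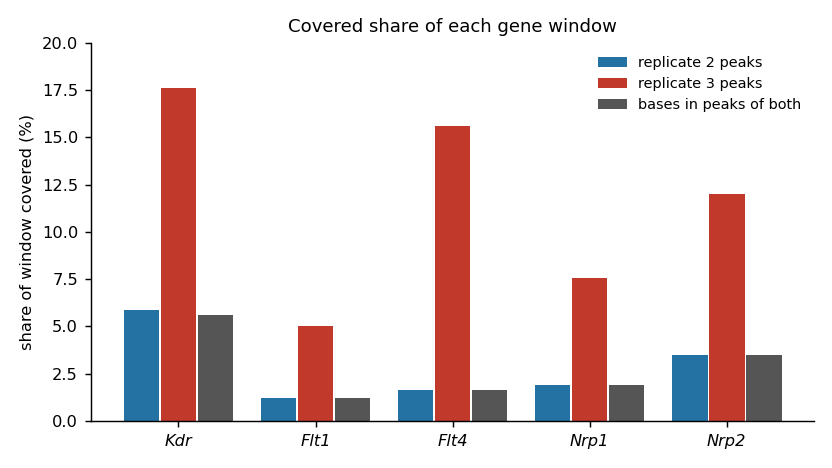
Share of each gene window (gene body and 10 kb on each side) covered by replicate 2 peaks (blue), replicate 3 peaks (red), and bases in peaks of both (dark grey), in percent. Each bar is 1 value with no error. *Flt4* is second of the 5 in replicate 3 (15.6%) and next to last in replicate 2 (1.64%).

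The order of the covered shares was *Kdr*, *Nrp2*, *Nrp1*, *Flt4*, and *Flt1* in replicate 2, at 5.86%, 3.47%, 1.92%, 1.64%, and 1.21%. In replicate 3 it was *Kdr*, *Flt4*, *Nrp2*, *Nrp1*, and *Flt1*, at 17.6%, 15.6%, 11.99%, 7.54%, and 5.01%. *Kdr* first and *Flt1* last held in both libraries, as did *Nrp2* over *Nrp1*, whereas the place of *Flt4* did not. Each gene has 1 value in each library, so no spread within a library stands behind these orders.

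The shared regions of the 5 genes had a median fold of 7.66 in replicate 2 and 18.3 in replicate 3, and the regions of replicate 3 only a median of 6.19. The ranges overlapped, at 3.84 to 60.3 and 3.01 to 27.1 in replicate 3, and only *Flt4* had regions of replicate 3 only above 18. Set against all 24199 shared regions, whose medians were 10.5 and 27.03, the shared regions of the receptors ranked low, at median percentiles of 30.3 in replicate 2 and 31.4 in replicate 3. Of the 43 there were 14 above the median of all shared regions in replicate 2, 12 in replicate 3, and 11 in both. These 11 were 4 of *Nrp2*, 3 of *Kdr*, 2 of *Flt1*, and 1 each of *Flt4* and *Nrp1*. Most shared regions of the receptors thus had a lower fold than the median shared region of the genome.

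**Figure D3:**
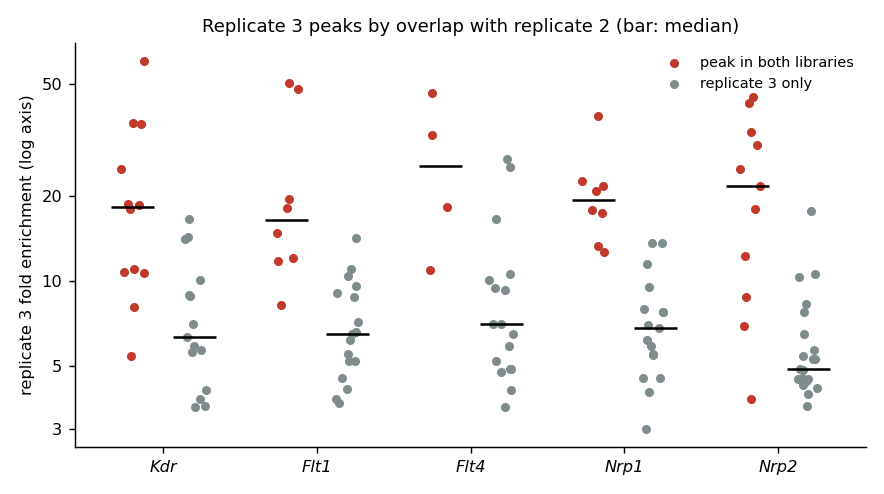
Replicate 3 fold enrichment (log axis) of each region in the 5 windows, in red for regions with a replicate 2 peak and in grey for those without, with the median as a bar. The points are spread sideways only to be seen. The grey points of *Flt4* reach 27.1, and the other genes' grey points stay at or below 17.7.

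**Figure D4:**
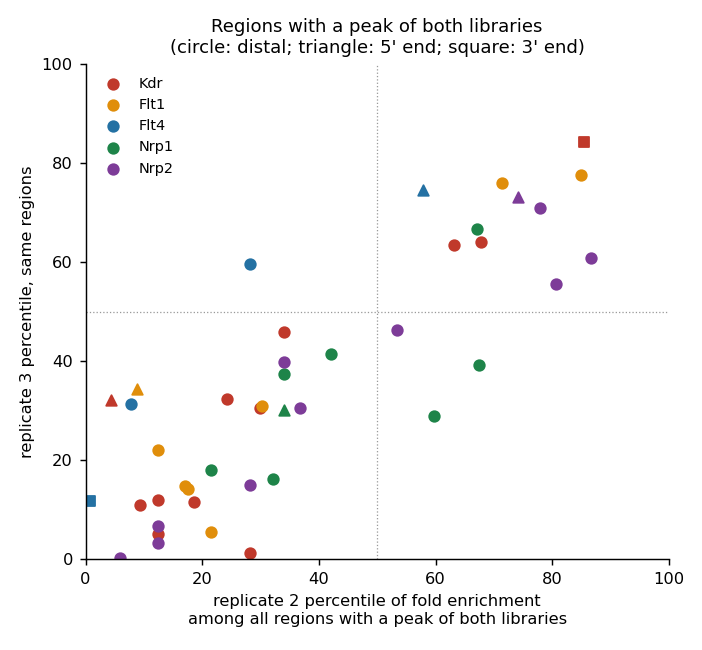
Percentile of fold enrichment among all 24199 shared regions, in replicate 2 (x axis) and replicate 3 (y axis), for the 43 shared regions of the 5 genes, coloured by gene, with circles for distal regions, triangles for 5′ ends, and squares for 3′ ends. Dotted lines mark the median of all shared regions. The upper right part holds 11 of the 43, led by the 3′ end of *Kdr*, and most points lie in the lower left.

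Of 5 ligand genes, 2 had a gene-end peak of both libraries, a share near the 43.4% of all protein-coding genes. They were *Vegfa* (folds of 13.8 and 39.5) and *Vegfc* (8.13 and 10.1). *Vegfb* had one in replicate 3 only (7.99), and *Vegfd* and *Pgf*, the gene for placental growth factor, had none in either library. A shared distal region was found at 3 of the 5, *Vegfa*, *Vegfb*, and *Vegfd*, against 39.3% of all protein-coding genes. The ligand windows held a median of 1 shared region, as did the protein-coding genes as a whole, against 8 for the receptors. These are counts over unlike lengths, with ligand genes of 5.18 to 109 kb and receptor genes of 43.1 to 165 kb. Peaks of both libraries covered a median of 0.334% of the ligand windows and 1.92% of the receptor windows. *Vegfb*, at 5.64%, was above every receptor, and *Vegfa*, at 3.09%, was above *Flt1*, *Flt4*, and *Nrp1*. The *Vegfb* gene is 5.18 kb long, so most of its window is flank. The highest folds in that window, 25.9 and 77.8, were not at the ends of *Vegfb*. The ligand windows were not checked for ends of other genes, so regions there may belong to neighbours. *Vegfc*, *Vegfd*, and *Pgf* were below all 5 receptors. The related class III receptor kinases are best known, as a group, in stromal and blood-forming cells. They had a gene-end peak of both libraries at 1 of 5, against the same 43.4%. It was at *Kit* (7.46 and 34.2), the neighbour of *Kdr*. *Pdgfra*, *Pdgfrb*, *Csf1r*, and *Flt3* had none in either library. At least 1 shared distal region was nevertheless found at 4 of the 5, against 39.3% of all protein-coding genes, with 5 at *Kit*, 2 at *Pdgfra*, and 1 each at *Csf1r* and *Flt3*. The highest folds in the *Csf1r* window were 17.6 and 32.7. Peaks of both libraries covered a median of 0.655% of the class III windows. *Kit*, at 2.05%, was above *Flt1*, *Flt4*, and *Nrp1*.

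**Figure D5:**
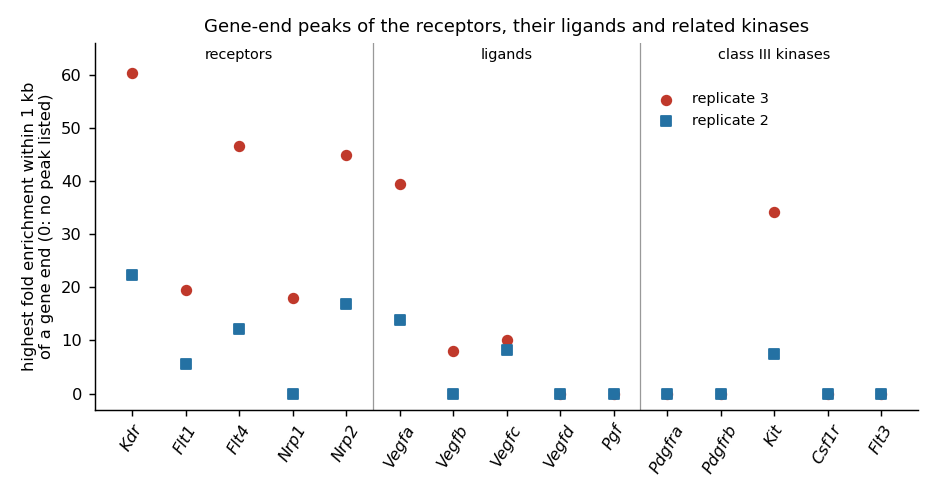
Highest fold enrichment within 1 kb of either gene end in replicate 2 (blue squares) and replicate 3 (red circles) for the 5 receptors, 5 ligands, and 5 class III kinases, where 0 means that no peak was listed. The value of *Kdr* is that of its 3′ end, and *Kit* is the only class III kinase above 0.

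Of 8 partners of the receptors at the endothelial membrane, 5 had a gene-end peak of both libraries, against 43.4% of all protein-coding genes. They included *Cdh5*, the gene for VE-cadherin (16.3 and 36.1), and *Ptprb*, the gene for the phosphatase VE-PTP (15.3 and 19.5). *Epn1* and *Epn2*, which take part in the uptake of KDR, had folds of 19.5 and 39.8 and of 6.78 and 27.03, and *Tie1* had 8.68 and 27.03. *Tek* and *Dab2* had a gene-end peak in replicate 3 only but 6 and 8 shared distal regions. *Gipc1*, whose product binds the tail of NRP1, had none at its ends and 4 shared distal regions. Of 26 genes of VEGF signalling, 23 had a gene-end peak of both libraries, against the 43.4% of all protein-coding genes. Among the highest replicate 3 folds were those of *Pik3ca* (34.8 and 126), *Nck1* (33.2 and 98.01), *Rcan1* (33.9 and 92.9), *Map2k1* (23.7 and 90.5), and *Ptk2* (24.4 and 87.6). Each of these exceeded the highest gene-end fold of the receptors in replicate 3, 60.3. Peaks of both libraries covered a median of 1.80% of the partner windows and 1.64% of the signalling windows. The receptor windows had 1.92% and those of the LSEC markers 3.10%, so the receptors did not stand apart from these lists by coverage. Of 5 lymphatic markers, *Prox1* alone had a gene-end peak of both libraries (7.93 and 20.2). Of the other lymphatic markers, *Ccl21a* had a shared distal region (highest folds in its window, 6.78 and 13.7), *Reln* had 3 peaks in replicate 3 only, with a highest fold of 12.7, and *Pdpn* and *Mmrn1* had no peak in their windows.

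The gene most like each receptor was found as the protein-coding gene nearest to it over 4 percentiles, those of the covered share and of the highest fold in each of the 2 libraries. It was *Tspan4* for *Kdr*, *Rbm5* for *Flt1*, *Sgpp1* for *Flt4*, *Rab27a* for *Nrp1*, and *Sec24c* for *Nrp2*, at distances of 1.97, 3.01, 6.20, 2.96, and 1.95 percentile points. *Flt4*, with its high coverage in replicate 3 alone, had the farthest nearest gene. All 5 nearest genes were shorter than the receptor and had fewer shared regions (2 to 6, against 4 to 12). Length was not matched, and a shorter window with a like covered share holds fewer covered bases. Nothing particular to the receptors can therefore be read from these counts.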

How the data were processed

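H3K27ac ChIP-Seq libraries of replicates 2 and 3 were analysed from the authors' lists of peaks, 1 list per library and none pooled. In the deposited lists fold enrichment is a ratio of signal to background, the authors' p- and q-values are given as −log10 p and −log10 q, and the deposited score is a rescaled value of the caller that served no result. The submitters' processing notes name the mm10 build and, with no role or order, cutadapt 0.4.4, BWA 0.7.17, Picard 1.67, MACS2 2.0.10, and bedtools 2.27.1. How duplicates and inputs were handled was not given in the sources used here. The study describes a tagmentation-based library, whereas the sample records describe sonication and a ligation kit, and which one applies was not settled. A deeper or stronger library yields more peaks, and depth is unknown, so all counts are limited by replicate 2, and the Wilson intervals cover counts of peaks only.

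From these lists peaks were joined into regions, placed by a RefSeq gene table and start sites of GRCm38.p6, and counted. Positions count from 1. The gene table matched all 5 members, and a promoter sequence was found for each. A gene-end peak of both libraries needed overlapping peaks that were each within 1 kb of the same end, and a region was placed by its own edges. Only the windows of the 5 members were checked for ends of other genes. Percentiles give ties a middle rank. The limit of 40 kb for long genes was set after the members' lengths were seen. No test was run, since there is 1 condition. All members, ligands, class III kinases, and partners are named, and of the 26 signalling genes the 6 with the highest replicate 3 fold at a gene end, of which 1 is not reported here. Of the markers, those named are examples. The members and lists were chosen with earlier results of these data known. The counting was tested on simulated data. Alternatives were a stricter q-value, equal list sizes, reciprocal overlap, other windows, joined regions, and each library alone. The work was done with Python 3.11.15, pandas 2.3.3 and numpy 2.4.6, with intervals from scipy 1.17.1 and plots from matplotlib 3.10.9.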

Additional observations from a re-analysis of the deposited data

How the results depend on the processing

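Over the 5 main counts 37 alternatives were run, and 30 stayed within 1.5 times the main value. That tally includes settings with a limited outcome. A wider flank can only keep or raise a count, and with 1 library left out no region can be shared. With the same number of strongest peaks taken from each library, regions of replicate 3 only fell from 87 to 11, while shared regions numbered 33, against 43. With a reciprocal overlap of at least 50%, shared regions numbered 22 and shared distal regions 20. Genes with at least 1 shared distal region then numbered 4. Only 1 gene, *Kdr*, kept a gene-end peak of both libraries, and its start-site peaks met this rule. Shared distal regions joined at a stitching distance numbered 15. With 1 library left out, all peaks of the other were counted, from 47 to 130 in place of shared regions. In place of shared distal regions there were 40 to 119, the higher values being those of replicate 3 alone. Gene-end calls ran from 4 to 5. Measuring from the edge of the joined region, an alternative chosen after seeing the data, put *Nrp1* among the genes with a gene-end call, which made 5. Among genes of at least 50 kb the percentile of the covered share was 79.2 for *Flt1*, 91.7 for *Nrp1*, and 98.5 for *Nrp2*, against 63.6, 75.5, and 89.7 among all, and *Kdr* and *Flt4*, which are shorter, were not ranked there. No paired analysis was possible because the files hold 1 condition. The cause of these shifts was not tested beyond the change each alternative makes.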
